A study of Homo sapiens with 3 samples.

Results

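The E2F transcription factors and their DP partners were followed in HepG2 cells, an established human hepatocellular carcinoma line, after 30 h of etoposide, a topoisomerase II poison that breaks DNA. The group held the 10 genes E2F1, E2F2, E2F3, E2F4, E2F5, E2F6, E2F7, E2F8, TFDP1 and TFDP2, of 27274 genes on the array. They were taken by gene name with every non-control probe, which gave 15 of 34127 probes. One-color microarrays had been used to profile 1 sample per condition, and the 3 conditions lay on 1 slide. The low dose was 10 μM and the high dose was 100 μM. Control cells (0 μM) are called untreated in the labels, whereas the column headings of the study name DMSO, a solvent, as the reference of its array ratios. The labels name no other agent and no engineered allele. The doses were chosen by the study to set a senescence-like state at the low dose against apoptosis at the high dose. With 1 array per condition no test was possible, so each fold change below is a description of these arrays, given with the spread between repeated spots and the error that the scanner software assigned to each spot. Neither covers the difference between separate cultures.

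E2F proteins bind DNA at the promoters of genes for S phase entry and DNA replication, mostly as a dimer with a DP protein. In resting cells a pocket protein (pRB, p107 or p130) covers the activation domain of the E2F, and cyclin-dependent kinases release it by phosphorylating the pocket protein. E2F1, E2F2 and E2F3 are known as activators, E2F4 and E2F5 act mostly as repressors with p107 and p130, E2F6 represses without a pocket protein, and the atypical E2F7 and E2F8 repress without a DP partner.

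The promoters of some of these genes are themselves known E2F targets, so the letters of the E2F site were searched in the RefSeq promoter windows, which run from 250 bases before to 50 bases after a transcript's start (GRCh38.p14). A window was found for 8 of the 10 genes, 11 windows in all. The E2F site was searched on both strands as the 8 letters TTTCCCGC, TTTGGCGC, TTTCGCGC or TTTGCCGC, and, in a version chosen after the windows had been seen, as the same letters without the last of each. The windows below show the activator genes E2F1, E2F2 and E2F3, whose values differed in their response to the drug, beside E2F7, which had the highest ratio of the low dose to control among the 10 genes, and E2F4, whose signal varied little. Each is written 5′ to 3′ along the gene, and capitals mark letters that matched the E2F site in either version. E2F1 lies at chr20:33686336-33686635 on the minus strand, E2F2 at chr1:23531184-23531483 on the minus strand, E2F3 at chr6:20401629-20401928 on the plus strand, E2F7 at chr12:77065520-77065819 on the minus strand and E2F4 at chr16:67191905-67192204 on the plus strand.
E2F1: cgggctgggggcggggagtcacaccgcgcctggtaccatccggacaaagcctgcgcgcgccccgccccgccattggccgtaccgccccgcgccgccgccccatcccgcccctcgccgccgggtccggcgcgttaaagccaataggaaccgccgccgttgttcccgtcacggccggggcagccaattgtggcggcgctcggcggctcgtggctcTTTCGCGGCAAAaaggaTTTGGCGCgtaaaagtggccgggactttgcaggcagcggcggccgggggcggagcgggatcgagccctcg
E2F2: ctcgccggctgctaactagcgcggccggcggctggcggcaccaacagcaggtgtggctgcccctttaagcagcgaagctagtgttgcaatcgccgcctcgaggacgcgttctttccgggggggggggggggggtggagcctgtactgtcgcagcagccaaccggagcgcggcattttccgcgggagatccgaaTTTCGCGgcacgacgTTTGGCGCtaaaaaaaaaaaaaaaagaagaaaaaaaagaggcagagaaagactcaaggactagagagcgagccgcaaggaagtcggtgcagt
E2F3: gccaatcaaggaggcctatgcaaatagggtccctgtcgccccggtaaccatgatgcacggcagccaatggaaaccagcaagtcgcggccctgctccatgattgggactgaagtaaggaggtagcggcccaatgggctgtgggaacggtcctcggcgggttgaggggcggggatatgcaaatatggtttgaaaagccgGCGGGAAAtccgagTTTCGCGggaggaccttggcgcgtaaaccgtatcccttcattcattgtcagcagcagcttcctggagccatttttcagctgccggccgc
E2F7: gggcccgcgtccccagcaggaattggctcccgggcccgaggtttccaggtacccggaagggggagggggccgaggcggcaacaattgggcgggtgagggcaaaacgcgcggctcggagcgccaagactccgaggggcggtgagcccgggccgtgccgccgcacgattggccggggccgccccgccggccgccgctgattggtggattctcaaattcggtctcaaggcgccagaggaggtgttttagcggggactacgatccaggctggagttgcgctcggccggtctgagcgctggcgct
E2F4: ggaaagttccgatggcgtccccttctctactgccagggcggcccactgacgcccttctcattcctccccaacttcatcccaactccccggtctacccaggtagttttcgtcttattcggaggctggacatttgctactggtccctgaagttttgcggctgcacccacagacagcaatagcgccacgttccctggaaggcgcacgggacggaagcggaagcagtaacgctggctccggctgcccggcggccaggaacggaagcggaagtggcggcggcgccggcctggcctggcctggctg

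The E2F1 window held TTTGGCGC 20 bases before the start and TTTGCCGC on the opposite strand 33 bases before it, and the latter overlapped TTTCGCG at 37 bases. The E2F2 window held TTTGGCGC at 42 bases and TTTCGCG at 57 bases before the start. The E2F3 window held TTTCCCGC on the opposite strand at 53 bases and TTTCGCG at 39 bases. No match was found in the windows of E2F7 and E2F4, in either version. The TFDP1 window held TTTCGCGC on the opposite strand 120 bases before the start, and TTTCCCG stood at 183 and 78 bases in that of E2F6. Thus 4 of the 8 genes with a window held the 8 letters (E2F1, E2F2, E2F3 and TFDP1) and 6 the 7 letters (TFDP2 and E2F6 in addition). By windows, the 8 letters were in 36.4% of those of the E2F and DP genes and 3.31% of all 35116 windows, and the 7 letters were in 54.5% and 8.67%. A match describes the letters only and does not show that a protein binds there.

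All 10 genes gave signal above background in at least 1 condition. Of the 15 probes, 12 were well above background on all arrays by the software's own call, and so was the brightest probe of 9 of the 10 genes; E2F8 was the exception. No member spot was saturated. Only E2F1 was spotted repeatedly, 10 times per array, and for the other probes the spot SD was taken from the 50 repeated probes nearest in signal on the same array. Fold changes are ratios of processed signal after each array was divided by its 75th percentile (514 in control cells, 536 with the low dose and 432 with the high dose), and signals below are printed before that division. A gene is represented by its brightest probe unless another is named, and no probe's signal is set against another's. Since total RNA of a culture was measured, fewer cells in a cycle phase and less RNA per cell cannot be told apart.

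**Figure D1:**
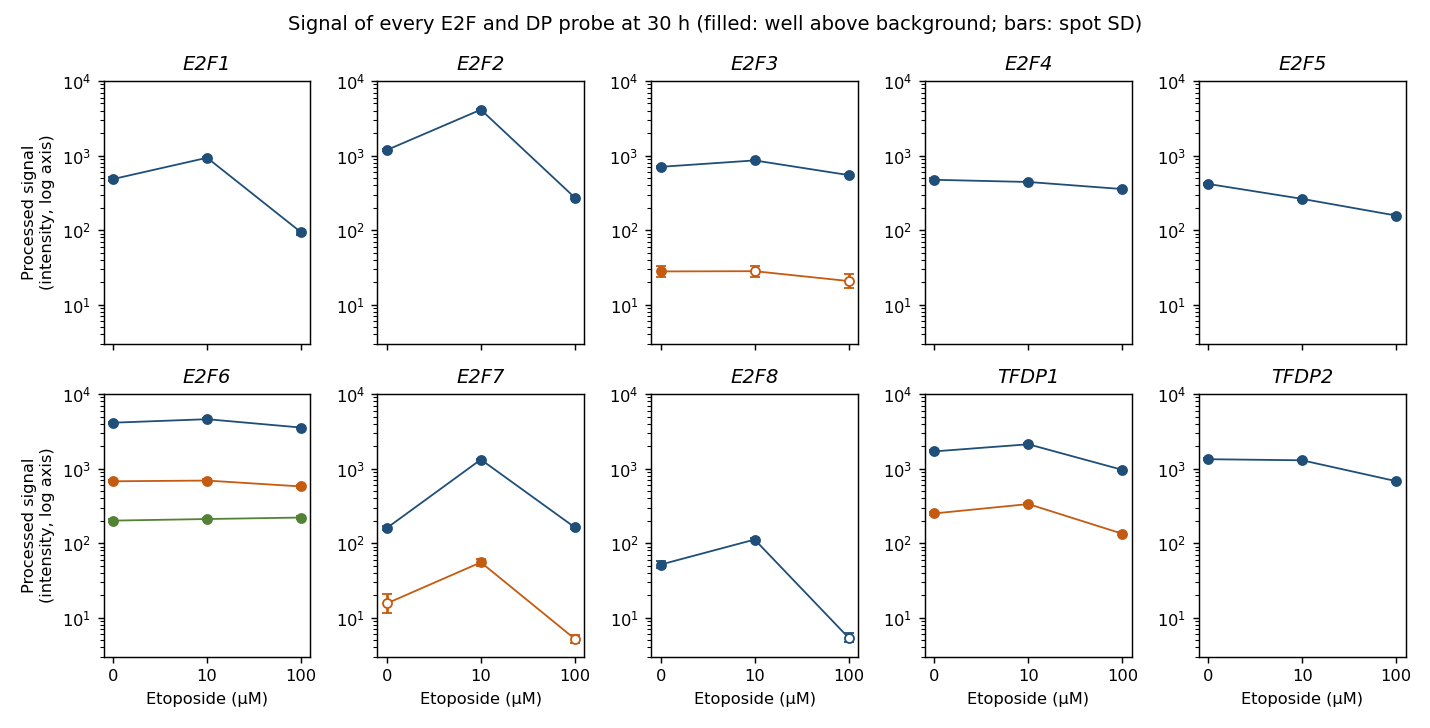
Processed signal (intensity, log axis) of each probe of the 10 genes at 0, 10 and 100 μM etoposide, with 1 panel per gene and 1 line per probe. Filled points are well above background, open points are not, and bars are the spot SD on 1 array; E2F1, E2F2, E2F7 and E2F8 peak at 10 μM, and the lines of E2F4 and E2F6 are nearly flat.

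Among the activators, E2F1 and E2F2 exceeded control at the low dose and fell below it at the high dose, while the signal of E2F3 stayed within 2 SD of the software's error. E2F1 promotes S phase entry and can also promote apoptosis. Its probe (NM_005225), on chromosome 20 of hg18 from 31727650 to 31727709, read 485 in control cells, 936 with the low dose and 93.7 with the high dose. The spots ranged from 446 to 520 in control cells, from 897 to 980 at the low dose and from 88.8 to 110 at the high dose, before scaling. They are repeats on 1 array per condition. E2F1 was 1.85-fold above control at the low dose (log2 0.89, spot SD 0.08) and 4.36-fold lower at the high dose (log2 -2.12, spot SD 0.12). The low dose thereby exceeded the high dose 8.05-fold. With normexp background correction, the high dose was at -1.49 and no longer past 3-fold below control. That correction starts from the raw mean signal and local background and adds an offset of 50, which by itself compresses the fold changes of dim signals. How much of the differences here and below comes from the offset was not tested.

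E2F2, an activator bound by pRB, read 1189 in control cells, 4131 with the low dose and 273 with the high dose on its single probe (NM_004091, chromosome 1 of hg18 from 23705520 to 23705579). It was 3.33-fold above control at the low dose (log2 1.74, spot SD 0.06) and 3.67-fold lower at the high dose (log2 -1.87, spot SD 0.08). At 12.2-fold, its ratio of low to high dose was the highest of the 9 genes measured at both doses; that of E2F8 is known only as a lower bound. E2F3, also an activator, read 707, 862 and 548 in control cells, with the low dose and with the high dose on the probe at chromosome 6 of hg18 from 20601824 to 20601883 (NM_001949). After scaling it was 1.17-fold of control at the low dose (log2 0.22) and 0.920-fold at the high dose (log2 -0.12), both within 2 SD of the software's error of 0.20. Its second probe read 28.0, 28.2 and 20.8 and was well above background in control cells only. The 3 activators therefore did not move alike: E2F1 and E2F2 lay above control with 10 μM and below it with 100 μM, and E2F3 stayed within 2 software SD of control at both doses.

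The repressors E2F4 and E2F6 stayed within 2 software SD in each comparison, and E2F5 was lower at both doses. E2F4, which binds the pocket proteins of resting cells, read 474 in control cells, 443 with the low dose and 356 with the high dose (NM_001950). Its probe spans 280 bases of hg18 for 60 bases of sequence (chromosome 16, 65789011 to 65789290) and so crosses an intron. After scaling, E2F4 was 0.896-fold of control at the low dose and 0.893-fold at the high dose, with a software SD of 0.20 and 0.21 on the log2 scale. Between the doses its log2 difference was 0.01, and it changed sign over the 7 scalings tried, from -0.07 to 0.32.

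E2F5, the partner of p130, read 417 in control cells, 263 with the low dose and 157 with the high dose on its single probe (NM_001951). Its signal thus decreased from control to the low and on to the high dose. It was 1.66-fold lower than control at the low dose (log2 -0.73, spot SD 0.08) and 2.24-fold lower at the high dose (log2 -1.17, spot SD 0.09), the only one of the 10 genes beyond 2 software SD below control at both doses. The doses differed 1.35-fold. With normexp the high dose was at -0.82 against control and no longer past 2-fold.

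E2F6, a subunit of the Polycomb complex PRC1.6, had 3 probes (NM_198256) on chromosome 2 of hg18. The brightest, from 11502975 to 11503034, read 4132, 4602 and 3555 in control cells, with the low dose and with the high dose, and the second, from 11503912 to 11503971, read 677, 692 and 577. The third probe, nearest the 5′ end of the transcript (11523350 to 11523409), read 201, 211 and 221. None of the 3 probes was beyond 2 software SD in any comparison. The brightest probe was at log2 0.09 against control with 10 μM and 0.03 with 100 μM, where the sign changed over the scalings (-0.26 to 0.10), and at 0.06 between the doses (-0.01 to 0.37). The third probe was 1.31-fold higher than control at the high dose, against 1.01-fold for the second probe, whose sign changed with the scaling (log2 -0.27 to 0.08).

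Both atypical E2Fs exceeded control at the low dose, and E2F7 had the largest increase of the 10 genes. E2F7, a repressor of E2F1 and of S phase genes, read 160 in control cells, 1324 with the low dose and 163 with the high dose (NM_203394, chromosome 12 of hg18 from 75939651 to 75939710). It was 7.95-fold above control at the low dose (log2 2.99, spot SD 0.09), and the low dose exceeded the high dose 6.56-fold. The high dose was at 1.21-fold of control, within 2 software SD, with a log2 difference between -0.01 and 0.34 over the scalings. In contrast to E2F1 and E2F2, E2F7 was therefore not below control at the high dose beyond 2 software SD. Its second probe, from 75941707 to 75941766, read 15.6, 55.4 and 5.21 and was well above background at the low dose only. It gave the low dose as at least 2.72-fold higher than control and at least 2.06-fold higher than the high dose, while normexp gave log2 0.55 and 0.20 for this probe. Here and below, such a bound replaces the dim signal by the dimmest one called well above background on the same array (19.5 for control, 22.7 for the low and 21.6 for the high dose).

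E2F8, the other atypical repressor, read 51.7 in control cells, 112 with the low dose and 5.40 with the high dose (NM_024680, chromosome 11 of hg18 from 19202251 to 19202310). The last of these was not well above background. E2F8 was 2.08-fold above control at the low dose (log2 1.06, spot SD 0.17), while the high dose lay at least 2.01-fold below control and at least 4.18-fold below the low dose. These are the least precise values of the 10 brightest probes, with a software SD of 0.25 for the low dose over control. With normexp they came to 0.55 at the low dose over control, -0.13 at the high dose over control and 0.68 between the doses on the log2 scale, none of them past 2-fold.

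The DP partners stayed within 2 software SD of control at the low dose and were lower than control at the high dose. TFDP1, which encodes the main dimer partner DP1, read 1704, 2122 and 963 in control cells, with the low dose and with the high dose (NM_007111, chromosome 13 of hg18 from 113343315 to 113343374). It was 1.19-fold of control at the low dose (log2 0.26) and 1.49-fold lower at the high dose (log2 -0.57, spot SD 0.07), and the doses differed 1.78-fold. The second probe, which spans 465 bases and so crosses an intron (113338389 to 113338853), read 251, 335 and 134. It gave 1.28-fold, 1.57-fold lower and 2.01-fold for the same comparisons, so both TFDP1 probes ran the same way.

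TFDP2, which encodes the second partner DP2, read 1338 in control cells, 1294 with the low dose and 679 with the high dose (NM_006286, chromosome 3 of hg18 from 143154045 to 143154104). It was 0.927-fold of control at the low dose and 1.66-fold lower than control at the high dose (log2 -0.73, spot SD 0.07). TFDP3, a DP gene outside the 10 genes, was spotted 10 times per array with mean signals of 19.4, 25.5 and 14.8, and 2, 5 and 1 of those spots were well above background. No fold change was computed for it.

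**Figure D2:**
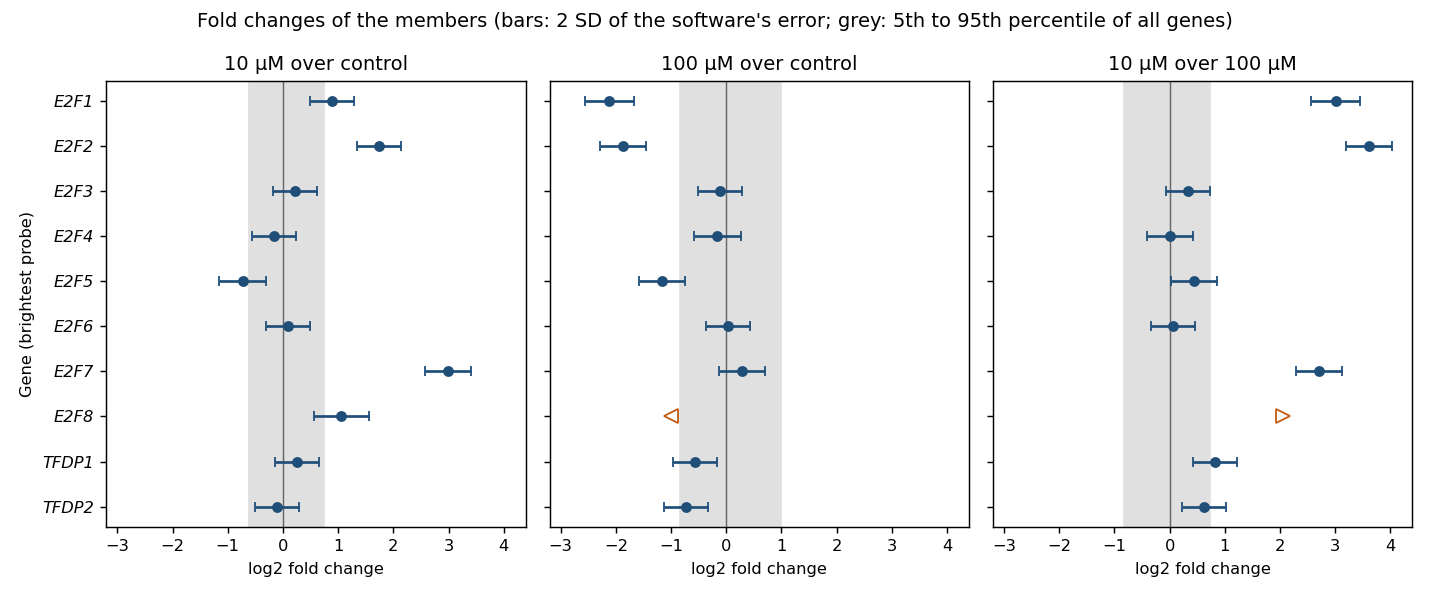
Log2 fold change of the brightest probe of each gene at 10 μM over control, 100 μM over control and 10 μM over 100 μM, with bars of 2 SD of the software's error and triangles for the bounds of E2F8. The grey band is the 5th to 95th percentile of all genes well above background in both conditions. E2F1 and E2F2 lie right of it at 10 μM over control (log2 0.89 and 1.74) and left of it at 100 μM over control (-2.12 and -1.87).

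Counted against all genes, 2 of the 10 genes were upregulated more than 3-fold over control at the low dose (E2F2 and E2F7), where 1.29% of the 16713 genes tested were past that fold. None of the 10 was more than 3-fold lower, as were 0.359% of all genes. At 2-fold the count was 3 higher (E2F8 in addition), against 3.37% of all genes, and 0 lower, against 1.57%. The median log2 fold change of the 10 genes was 0.24 and that of all genes -0.04. Over the 15448 genes well above background in both conditions, the 5th and 95th percentile were -0.61 and 0.75. Of the 10 genes, 5 were within 2 software SD of control. E2F2 and E2F7 were among the genes that the study selected from these same arrays. Quantitative PCR in the study also put both above control at the low dose, E2F7 by more than 3-fold but E2F2 by less. At the high dose that PCR put E2F2 below control and E2F7 above it.

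At the high dose, none of the 10 genes was more than 3-fold higher than control, as were 1.84% of the 16976 genes tested, and 2 were more than 3-fold lower (E2F1 and E2F2), against 1.64% of all genes. At 2-fold none was higher, against 6.74%, and 4 were lower (E2F1, E2F2, E2F5 and, as a bound, E2F8), against 3.63%. The median of the 10 genes was -0.65 and that of all genes 0.09, and 4 were within 2 software SD of control. Both comparisons used the same control array, so an error of that array enters both.

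Between the doses, 4 of the 10 genes at the low dose exceeded the high dose more than 2-fold (E2F1, E2F2, E2F7 and, as a bound, E2F8), where 3.63% of the 16790 genes tested were past that fold. None was more than 2-fold higher at the high dose, against 3.94% of all genes. The medians were 0.72 for the 10 genes and -0.10 for all genes. TFDP1 stood just inside the threshold at 1.78-fold and passed it without scaling, with median scaling and with scaling to the spike-in controls. These scalings moved the median of all genes between the doses by 0.31, 0.26 and 0.22, and that of the high dose over control by -0.24, -0.28 and -0.16. Under each of the 7 scalings, all 10 genes kept their direction at the low dose over control. At the high dose over control all but E2F6 and E2F7 did, and between the doses all but E2F4 and E2F6. Some of these directions, such as those of E2F3 and E2F4 over control, lay within 2 software SD.

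**Figure D3:**
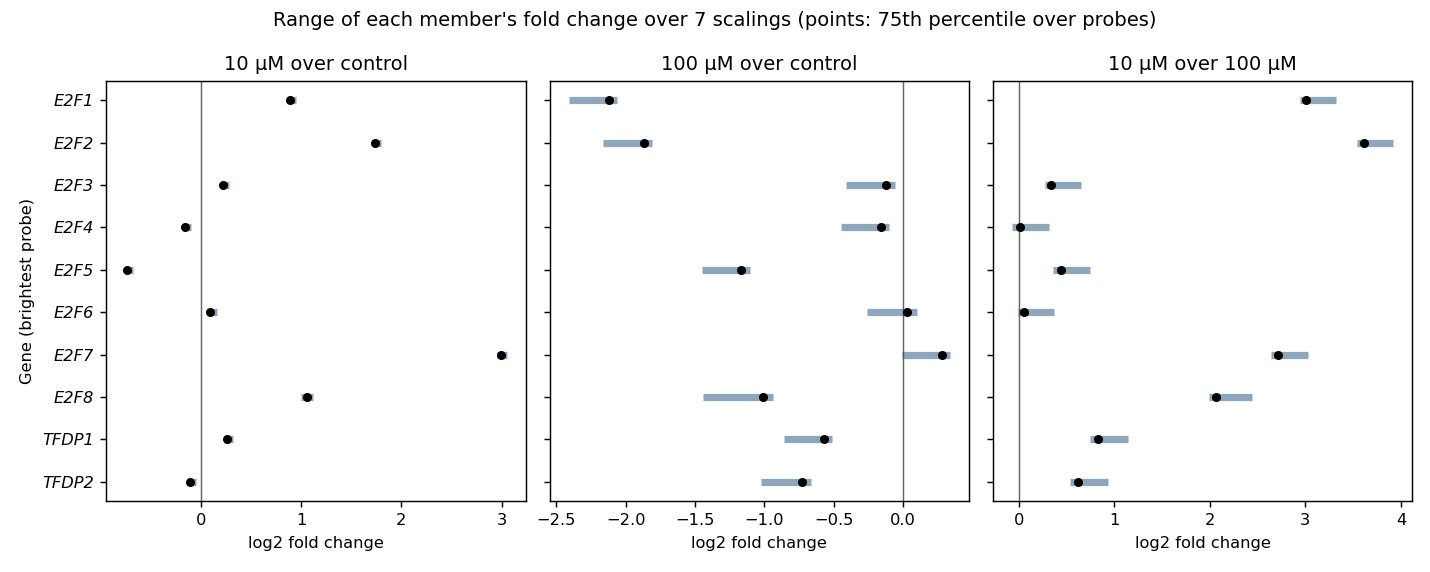
Log2 fold change of each gene's brightest probe under 7 scalings between arrays (bars, lowest to highest) with the 75th percentile over probes as points, for the 3 comparisons. The bars are short at 10 μM over control and wider where the 100 μM array enters; those of E2F6 and E2F7 at 100 μM over control (-0.26 to 0.10 and -0.01 to 0.34) and of E2F4 and E2F6 between the doses (-0.07 to 0.32 and -0.01 to 0.37) cross 0.

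Genes known as E2F targets at the G1/S transition lay on the same side of control as E2F1 and E2F2 in these arrays, with few exceptions. At the low dose, 34 of the 36 genes of this list were higher than control and 2 lower, 7 of them more than 2-fold higher and none more than 2-fold lower, with a median log2 fold change of 0.55. Of all genes tested, 3.37% were more than 2-fold higher there and 1.57% more than 2-fold lower. Of the 15448 genes well above background in both conditions, 45.6% were higher than control. Of the 36 listed genes, 11 lay within 2 software SD of control. The highest were PCNA, the sliding clamp of DNA polymerases (3886 in control cells and 16892 with the low dose, log2 2.06), CCNE2, which encodes cyclin E2 (47.5 and 138, log2 1.48), and POLA2, a subunit of DNA polymerase alpha (130 and 371, log2 1.45). The lowest were NASP, a histone chaperone, and CHEK1, the checkpoint kinase, both at -0.02, where leaving out the scaling added 0.06, and CCNA2, which encodes cyclin A2, at 0.07.

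At the high dose, 28 of these 36 genes, 1 of them as a bound, were more than 2-fold lower than control and none more than 2-fold higher, and the median was -1.68. Of all genes tested, 3.63% were more than 2-fold lower there and 6.74% more than 2-fold higher. CCNA2 fell from 837 to 95.2 (log2 -2.89), GINS2, a subunit of the replicative helicase, from 1377 to 179 (-2.70), and MYBL2, the transcription factor B-MYB, from 633 to 94.4 (-2.50). At the other end stood PCNA (4472 at the high dose, log2 0.45), CCNE1, cyclin E1 (2918 and 2498, 0.03), and CCNE2 (30.4, -0.39). All 36 genes exceeded their high-dose value at the low dose, 34 of them more than 2-fold (2 as bounds), with a median of 2.20. That fold was passed by 3.63% of all genes tested. GINS2 (3.40) and the replication initiation factor MCM10 (3.35) were highest, and CCNE1 (0.45), the histone mRNA binding protein SLBP (0.93) and CASP8AP2 (1.14) lowest. All genes tested had a median of -0.04, 0.09 and -0.10 in these comparisons.

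The G2/M genes, which DREAM and B-MYB complexes control through the CHR element, were not higher as a group at the low dose. Their median there was -0.21, with 3 of 12 higher and 9 lower than control and none past 2-fold. At the high dose all 12 were more than 2-fold lower than control, against 3.63% of all genes, with a median of -2.65. The values ran from the cyclin gene CCNB2 (6419 in control cells and 554 at the high dose, -3.28), the kinase gene PLK1 (-3.28) and the checkpoint kinase gene BUB1 (-3.18) to CDK1 (-2.22), the kinase gene AURKA (-2.21) and the kinesin gene KIF20A (-2.17). Between the doses all 12 differed more than 2-fold in favor of the low dose, against 3.63% of all genes, with a median of 2.65. CENPF (3.01), CDC25C and BUB1 (2.99) had the highest values, in that order, and AURKA (1.64), CDC20 (1.70) and KIF20A (1.91) the lowest.

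**Figure D4:**
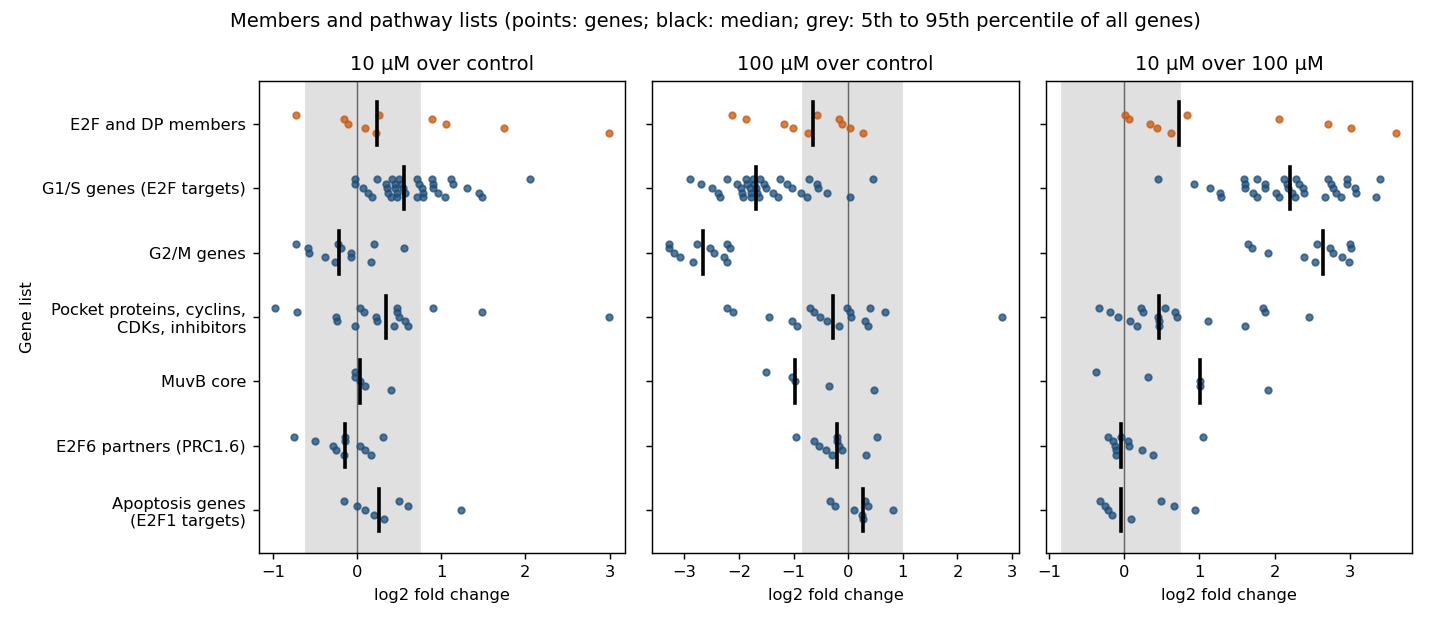
Log2 fold changes of the 10 E2F and DP genes (orange) and of the genes of 6 pathway lists (blue), 1 point per gene, for the 3 comparisons. Black bars are medians, and the grey band is the 5th to 95th percentile of all genes well above background in both conditions. The G1/S median lies at 0.55, -1.68 and 2.20 and the G2/M median at -0.21, -2.65 and 2.65, while the medians of the E2F6 partners stay between -0.20 and -0.04.

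Upstream of the E2Fs, 18 of the 20 listed pocket proteins, cyclins, kinases and inhibitors were measured, and CDKN1C and CDKN2B were not well above background. The pocket protein genes RB1 (1321, 2090 and 1159 in control cells, with the low dose and with the high dose) and RBL2 (400, 441 and 300) stayed within 2-fold of control at both doses. At the low dose RB1 was nevertheless beyond 2 software SD above control (log2 0.60, software SD 0.20), and RBL2 was not (0.08). RBL1, which encodes p107 and is itself an E2F target, read 124, 191 and 50.9 and was at log2 -1.03 at the high dose. At the low dose only CDKN1A, which encodes the CDK inhibitor p21, and CCNE2 were more than 2-fold higher than control, and none of the 18 was more than 2-fold lower. Of all genes tested, 3.37% were more than 2-fold higher there and 1.57% more than 2-fold lower. CDKN1A read 170, 1407 and 1010, so the low dose lay 7.94-fold and the high dose 7.07-fold above control.

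At the high dose CDKN1A was the only one of the 18 more than 2-fold higher than control. There, 4 of them were more than 2-fold lower: CKS1B, a cofactor of the ubiquitin ligase SCF-SKP2 (14836 in control cells and 2679 at the high dose, -2.22), the CDK inhibitor gene CDKN2C (607 and 119, -2.10), SKP2 (215 and 66.8, -1.44) and RBL1. Of all genes tested, 6.74% were more than 2-fold higher there and 3.63% more than 2-fold lower. The median of the 18 was 0.34 at the low dose, -0.28 at the high dose and 0.46 between the doses, where CKS1B (2.46), CCNE2 (1.87), CDKN2C (1.85), RBL1 (3.03-fold) and CDK2 (1.12) passed 2-fold in favor of the low dose and none in favor of the high dose. Of all genes tested, 3.63% passed 2-fold in favor of the low dose and 3.94% in favor of the high dose. The 5 genes of the MuvB core, which joins E2F4 and p130 in the DREAM complex, had medians of 0.03, -0.97 and 1.01. LIN9 (385 in control cells and 114 at the high dose, -1.51) and LIN52 (73.1 and 30.1, -1.03) were more than 2-fold lower at the high dose, while none passed 2-fold at the low dose. Between the doses LIN9 (1.91), LIN52 (1.01) and LIN54 (1.01) passed 2-fold in favor of the low dose. LIN52, LIN54 and CDK2 did so by less than their software SD (0.32, 0.21 and 0.30). So did LIN52 and RBL1 at the high dose below control (0.32 and 0.24).

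The labels name HepG2 cells, and all 10 hepatic marker genes were well above background on each array, among them ALB, AFP, APOA1 and HNF4A. Past 2-fold among them was TTR, a thyroid hormone carrier, at the high dose over control (1110 in control cells and 2013, log2 1.11). HNF4A, a transcription factor of hepatocytes, passed it between the doses (30.4 at the low and 53.7 at the high dose, log2 -1.13, software SD 0.37). Its low-dose signal was near the dimmest one called well above background on that array (22.7). Of 7 markers of other cells, COL1A1, COL3A1 and KRT5 were not above background on any array, and PTPRC, CD68, PECAM1 and DES were, with a summed signal over the 7 of 1176 in control cells, 959 with the low dose and 1259 with the high dose. These markers moved in different directions. CD68, of macrophages, read 173, 239 and 409, PTPRC, of leukocytes, read 257, 131 and 288, PECAM1, of endothelium, read 473, 298 and 286, and DES, of muscle, read 260, 274 and 258. Past 2-fold were PTPRC at the low dose over control (log2 -1.03), CD68 at the high dose over control (1.49) and both between the doses (-1.44 and -1.09). Of all genes tested, 1.57% were more than 2-fold lower at the low dose and 6.74% more than 2-fold higher at the high dose. The part of these markers in the results was not tested. As a check on the treatment, 13 of 15 p53 target genes were more than 2-fold above control with 10 μM and 9 with 100 μM, with medians of 1.67 and 1.36. Of all genes tested, 3.37% and 6.74% were past that fold. With 10 μM the highest log2 values over control were those of BTG2 (3.34), CDKN1A (2.99) and MDM2 (2.81) and the lowest those of TNFRSF10B (0.40), GDF15 (0.87) and BAX (1.05). With 100 μM, CDKN1A (2.82), BTG2 (2.77) and PHLDA3 (1.96) were highest and TNFRSF10B (-0.17), GDF15 (0.34) and PPM1D (0.55) lowest. Between the doses, MDM2 (1.14) and PPM1D (1.07) passed 2-fold. Of all genes tested, 3.63% did so in favor of the low dose and 3.94% in favor of the high dose.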

How the data were processed

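Expression was measured on 3 one-color Agilent arrays of 60-base probes, 1 per condition. The authors deposited the scanner output of Agilent Feature Extraction 10.7.3.1 (named in the submitters' processing notes), in which each spot has a processed signal, an intensity from which the software had removed background and spatial trend on its own array. Probe positions (hg18) and gene names are those of the array files. The deposited table of the whole series held the same intensity within 0.1% for all 44495 spots of each array, so it was not scaled between arrays; its medians were 64.2, 68.7 and 64.2. The labels give 1 sample per group, so no p-value was computed, and 3 arrays limit the precision.

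From the deposited intensity, log2 values were averaged over the spots of a probe without the software's outlier spots and set relative to the array's 75th percentile, with each probe counted once; this choice was known from earlier work on these data. A gene was tested where its brightest probe was well above background in the brighter condition. A signal in the dim condition that fell short of this was replaced by the dimmest one that passed on its array, and the fold is written as at least N-fold. The software SD of a log2 fold change comes from the processed signal error of both arrays. The fold thresholds of 3 over control and 2 between doses follow the study, and 2 was also counted over control.

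The members, the gene lists and the tests were chosen with earlier results of these data known. All members were named with every probe, as were the 3 highest and 3 lowest G1/S genes in each comparison, every gene past 2-fold in the other lists (3 highest and 3 lowest where more than 6 passed) and the 3 genes of nearest pattern to E2F1, E2F2, E2F7 and E2F8, besides marker genes. RB1, RBL2 and the apoptosis genes below the fold were named after their values had been seen. Alternatives covered 6 other scalings, normexp background correction with an offset of 50, outlier spots, the filter on dim probes, the choice of probe, the thresholds and the series table. The computation was checked on simulated data. One gene that the naming rule gave is not reported here. Promoter windows came from RefSeq tables. Python 3.11.15, pandas 2.3.3, numpy 2.4.6, matplotlib 3.10.9, R 4.3.3 and limma 3.58.1 were used.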

Additional observations from a re-analysis of the deposited data

How the results depend on the processing

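Of the 14 alternatives, 11 were computed for the fold changes of the member probes as well as the counts and list medians; the mean over the probes of a gene bears on the counts and list medians, and the changes of threshold on the counts. Of 466 recomputed values of member probes, 108 moved by more than the spot SD. The 466 include values from the series table, which held the same intensities, and from kept outlier spots, where only E2F1 had repeated spots. Such values could hardly move. None turned from higher to lower where the fold was past its threshold. Scalings by 1 factor per array moved the median of all genes by at most 0.31 on the log2 scale, too little to turn such a fold. E2F4, E2F6 and E2F7 crossed 0 with the scaling as given with their values. The high dose over control had 2 members more than 3-fold lower. This count was 1 with normexp (E2F2), 4 at a threshold of 2-fold and 1 at 4-fold (E2F1). At the low dose over control, 2 members were past 3-fold and 1 past 4-fold (E2F7). Without the filter on dim probes, E2F8 joined those past 3-fold lower at the high dose. E2F8 dropped from the 4 members past 2-fold between the doses with normexp and when only probes above background on all arrays were kept. At the high dose over control, the G1/S median was -1.93 without scaling, -1.97 with median scaling, -1.85 with spike-in scaling and -1.25 with normexp, and the G2/M median was -2.90, -2.94, -2.82 and -2.27. Between the doses, the G1/S median was 2.51, 2.47, 2.43 and 1.82 in the same order and 2.33 with quantile normalization, and the G2/M median was 2.96, 2.91, 2.87 and 2.24. The cause of these differences was not tested. The E2F letters were in promoters of 4 genes with 8 letters and of 6 genes with 7 letters. No paired analysis was possible because there was 1 array per condition, and for the same reason no array could be left out. Signal over background limits E2F8 at the high dose and the second probes of E2F3 and E2F7.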

Other observations

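Most of the measured genes known as apoptosis targets of E2F1 stayed within 2 software SD of control. Of 10 listed genes, 8 were measured, and PMAIP1 and MAP3K5 were too dim. For the low dose over control the median log2 fold change of the 8 was 0.26, and only APAF1, the scaffold of the apoptosome, was past 2-fold (2.34-fold; its signal was 80.4 at the low and 33.7 at the high dose). At the high dose over control the median was 0.27, 7 were within 2 software SD and none passed 2-fold in either direction. Of all genes tested, 6.74% were more than 2-fold higher there and 3.63% more than 2-fold lower. TP73, which encodes p73, was at 0.82 (software SD 0.39, signal 32.1 in control cells) and BBC3 at 0.11. Between the doses the median was -0.04, 5 of the 8 were within 2 software SD, and APAF1 was at 0.94. The 11 partners of E2F6 in PRC1.6 had medians of -0.14, -0.20 and -0.04 in the same comparisons. Of these, only PCGF6 passed 2-fold, at 1.05 between the doses (software SD 0.21), with a signal of 340, 379 and 148. That fold was passed in the same direction by 3.63% of all genes tested.

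Similar patterns were searched only among 12045 genes with a RefSeq mRNA (NM_) whose brightest probe passed the background call on each array. The 3 with log2 fold changes over control nearest to those of E2F1 were MLF1IP (now CENPU), CDCA5 and KIFC1. MLF1IP, a centromere protein, was at 0.91 and -2.17, and CDCA5, the cohesin regulator sororin, at 0.86 and -2.22. The kinesin gene KIFC1 was at 0.77 and -2.17. Their distances on the log2 scale were 0.055, 0.099 and 0.12, and 46 genes lay within 0.5 of E2F1. No gene lay within 0.5 of E2F2, and near ones were RRM2, a subunit of ribonucleotide reductase (1.14 and -1.74), and DTL (1.31 and -2.38). For E2F7, 1 gene lay within 0.5, LY6D (2.90 and 0.66). Next came CRABP2, which binds retinoic acid (2.84 and 0.92), and the cytidine deaminase gene APOBEC3B (2.32 and 0.29). Quantitative PCR in the study found LY6D and APOBEC3B higher with 10 μM than with 100 μM, but CRABP2 lower. The array pattern of CRABP2 was thus not reproduced there. E2F8 was not measured at the high dose and was given no neighbor.

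In the promoter windows of the G1/S list (31 genes, 41 windows) the 8 E2F letters were found in 48.8% and in those of the G2/M list (10 genes, 14 windows) in 14.3%, against 3.31% of all windows. The CHR letters TTTGAA, searched on both strands, were in 2.44% of the G1/S windows, 64.3% of the G2/M windows and 15.2% of all windows. CCAAT, also on both strands, was in 68.3%, 85.7% and 34.6%. Among the E2F genes, the E2F7 window held CCAAT at 4 positions on the strand opposite to the gene, and that of E2F3 held TTTGAA 65 bases before the start. The lists were chosen for what is known of these sites, so the shares describe the lists and not the response to etoposide.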
